A study of Mus musculus with 7 samples.

Results

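The chymotrypsin and elastase genes Ctrb1, Ctrc, Ctrl, Cela1, Cela2a, Cela3a and Cela3b were measured in embryonic mouse pancreas at E15.5, by sequencing of polyadenylated RNA. Each Ensembl identifier in the table of raw read counts was paired with its gene symbol, and the 7 symbols were each found once among 27138 features. The 3 cKO embryos (Pdx1Cre, mLINC00673fl/fl) had Cre and floxed alleles of the long non-coding RNA gene 2610035D17Rik, which is LINC00673 in human. The 4 WT embryos (mLINC00673fl/fl) carried the floxed alleles without Cre, so an effect of the deletion cannot be told apart from one of Cre. Pdx1-Cre acts in the pancreatic epithelium, whereas RNA came from the whole pancreas, and each library was from an independent animal. The comparison asked how the transcripts of the developing pancreas differ once this RNA is deleted.

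The libraries held 14883918 to 17767373 counts. The deleted gene had 2.01, 3.38 and 2.27 CPM (counts scaled to a common library total, TMM factors included) in cKO replicates 1 to 3, against 9.08, 8.76, 7.93 and 8.83 CPM in WT replicates 1 to 4. All cKO libraries lay under all WT libraries (log2 fold change −1.76), although the edgeR quasi-likelihood test left it short of the threshold (adjusted p = 0.0902). WT replicate 2 had 1212 CPM of Xist and no counts of 4 Y-linked genes, whereas the other 6 libraries had at most 0.442 CPM of Xist. The count table heads WT replicate 4 with another number than the other 6 libraries, and its meaning is not stated.

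Chymotrypsins and elastases are serine proteases that acinar cells of the exocrine pancreas make as inactive zymogens. They are stored in zymogen granules, released into the duct and activated in the gut by trypsin. Chymotrypsins cut after large hydrophobic residues, and elastases in general after small ones. Their genes are switched on as acinar cells differentiate, under the PTF1 complex of Ptf1a and Rbpjl, which binds an E-box and a TC-box.

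The sequences before the transcription start are shown because 5 of the 7 genes varied together between libraries, and because the near-identical copies Cela3a and Cela3b had very different counts. RefSeq gave a start for 6 of the 7 genes, on the build GRCm38.p6, another than the mm39 that the submitters name, and no position was converted. Each line gives the 200 bases before the start, 5′ to 3′ on the gene's strand, with the E-box CACCTG or its reverse complement CAGGTG in capitals.
Ctrb1 (chr8:111691011-111691210, minus strand): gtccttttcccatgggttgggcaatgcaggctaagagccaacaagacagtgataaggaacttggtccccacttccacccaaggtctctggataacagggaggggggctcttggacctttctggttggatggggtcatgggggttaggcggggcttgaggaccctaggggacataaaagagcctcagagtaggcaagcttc
Ctrl (chr8:105933863-105934062, minus strand): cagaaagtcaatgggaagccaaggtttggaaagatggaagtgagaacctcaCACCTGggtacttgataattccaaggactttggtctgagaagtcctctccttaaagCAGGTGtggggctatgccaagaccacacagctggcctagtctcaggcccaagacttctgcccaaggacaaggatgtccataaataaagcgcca
Cela1 (chr15:100687921-100688120, minus strand): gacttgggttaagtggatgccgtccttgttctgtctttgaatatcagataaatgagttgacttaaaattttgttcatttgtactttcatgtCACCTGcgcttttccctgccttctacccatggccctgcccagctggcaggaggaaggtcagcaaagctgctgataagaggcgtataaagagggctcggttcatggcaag
Cela2a (chr4:141826006-141826205, minus strand): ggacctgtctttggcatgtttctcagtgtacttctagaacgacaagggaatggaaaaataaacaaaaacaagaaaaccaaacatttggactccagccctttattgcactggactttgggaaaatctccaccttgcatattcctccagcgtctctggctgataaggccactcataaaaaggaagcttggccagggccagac
Cela3a (chr4:137409792-137409991, minus strand): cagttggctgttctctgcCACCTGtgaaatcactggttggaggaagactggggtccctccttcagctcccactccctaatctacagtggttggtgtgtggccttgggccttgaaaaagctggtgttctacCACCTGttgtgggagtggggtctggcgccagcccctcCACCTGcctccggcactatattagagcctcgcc
Cela3b (chr4:137430521-137430720, minus strand): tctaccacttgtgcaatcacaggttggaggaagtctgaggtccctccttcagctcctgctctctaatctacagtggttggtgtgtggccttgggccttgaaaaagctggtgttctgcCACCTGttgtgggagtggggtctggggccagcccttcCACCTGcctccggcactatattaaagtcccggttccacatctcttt
In windows of 250 bases before the start, searched on both strands, CACCTG was found for 5 of these 6 genes and in 17.2% of 32851 windows of all genes. Cela3a held 4 matches, which began 218, 182, 70 and 33 bases before the start, and Cela3b held 2, at 83 and 46 bases. Cela1 held 1 match at 109 bases, followed by the TC-box TTTCCC at 99 bases. The single match of Cela2a, at 218 bases, and the first of Cela3a lie before the stretch shown. Ctrl held 2, at 149 and 93 bases, and Ctrb1 held none. TTTCCC or its reverse complement GGGAAA was found for 4 of the 6 genes and in 21.9% of all windows, and no match of it overlapped a CACCTG match in these genes. The Cela3a and Cela3b windows were identical at 92.4% of 237 aligned bases. A match of letters is a description and does not show that a factor binds there.

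Ctrb1, which encodes chymotrypsinogen B, had more counts than any other feature of the table in every one of the 7 libraries. It took 3.06%, 2.53% and 1.71% of all counts in cKO replicates 1 to 3, against 1.64%, 1.79%, 1.80% and 3.37% in WT replicates 1 to 4. Of the reads of the 7 genes, 86.5% to 89.6% in cKO and 87.8% to 92.3% in WT came from Ctrb1. The study has a single stage, so these are levels at E15.5 and the onset of the genes was not measured.

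Per kilobase of annotated exon, Ctrb1 stood far above the elastases, and the other chymotrypsins stood below Cela1, Cela2a and Cela3b. Ctrb1 averaged 28037 ± 8479 CPM per kilobase in cKO (SD, n = 3) and 24714 ± 10518 in WT (SD, n = 4), 35 to 87.4 times the Cela3b level of the same library. This ratio also depended on the length used, and was 20.5 to 51.2 by the longest annotated transcript. Cela3b, an elastase of the third type, averaged 618 ± 383 CPM per kilobase in cKO and 489 ± 425 in WT. Cela2a, elastase 2A, averaged 625 ± 389 CPM per kilobase in cKO and 431 ± 367 in WT. Cela1, elastase 1, averaged 464 ± 86.8 CPM per kilobase in cKO and 384 ± 130.3 in WT. These 3 elastases did not differ beyond their spread: Cela3b exceeded Cela2a in 5 of 7 libraries (ratio 0.857 to 1.35) and Cela2a exceeded Cela1 in 3 of 7 (ratio 0.535 to 1.93). Their order depended on the length used, since by coding length Cela1 came before Cela3b and Cela2a. Cela1 exceeded Ctrc in 7 of 7 libraries, by 5.71 to 209 times.

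The remaining 3 genes were low, with wide spread. Ctrc, chymotrypsin C, averaged 69.5 ± 21.3 CPM per kilobase in cKO and 21.0 ± 21.6 in WT. Ctrl, a chymotrypsin-like protease, averaged 6.13 ± 3.85 CPM per kilobase in cKO and 5.78 ± 6.78 in WT. Cela3a averaged 1.44 ± 0.43 CPM per kilobase in cKO and 1.98 ± 1.94 in WT. Ctrc exceeded Ctrl in 5 of 7 libraries and Ctrl exceeded Cela3a in 6 of 7 (ratio 0.979 to 6.94). Per kilobase of annotated exon, neither step of the order thus held in every library. Ctrl exceeded Cela3a in 7 of 7 by coding length (ratio 1.27 to 8.98) and by the longest annotated transcript (1.29 to 9.13).

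**Figure D1:**
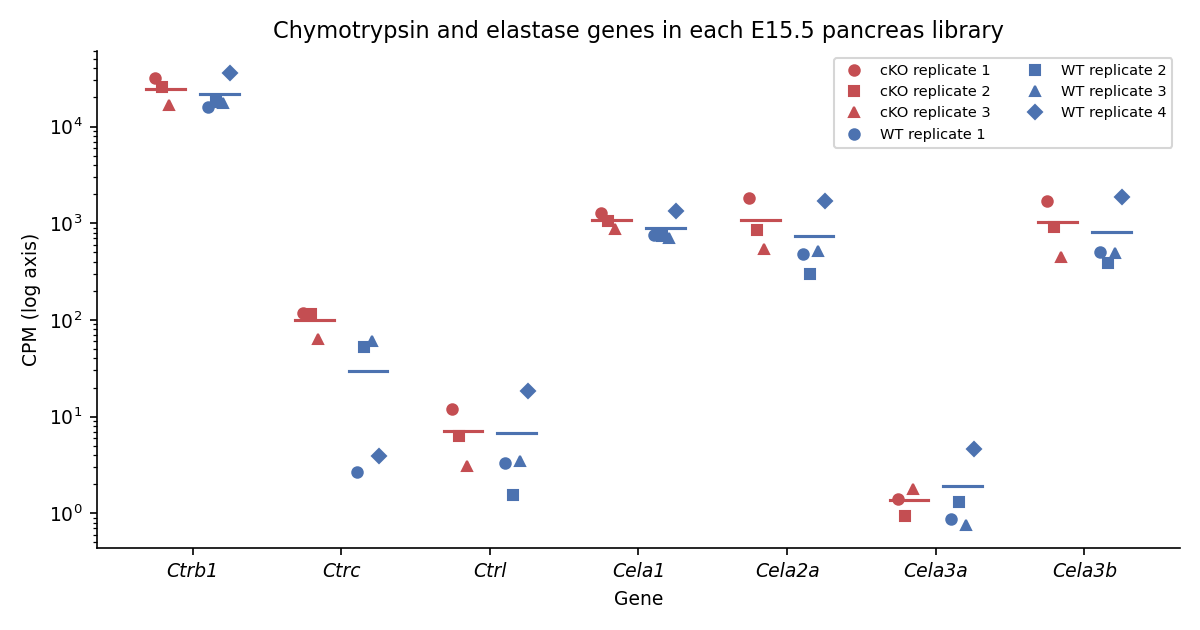
Level of each gene in CPM (log axis) in the 3 cKO libraries (red) and the 4 WT libraries (blue), with a symbol for each replicate and a bar at the group mean. Ctrb1 lies between 15791 and 35479.6 CPM, and Ctrc lies at 2.65 and 3.96 CPM in WT replicates 1 and 4 and between 53.1 and 118 CPM in the other 5 libraries.

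Cela3a and Cela3b both lie on chromosome 4, and their annotated transcripts were identical at 94.5% of 916 aligned bases. Cela3a held 24, 16 and 32 counts in cKO replicates 1 to 3, against 16, 22, 13 and 66 counts in WT replicates 1 to 4. Cela3b held 28963, 15579 and 8161 counts in the same cKO libraries, against 9254, 6520, 8564 and 26507 in the WT libraries. Of the 50-base windows of the Cela3a transcript, 32% also occur in Cela3b. The sources used here do not state how reads that match both were treated, so the Cela3a values are uncertain. No other pair of the 7 transcripts shared a window of that length, and their identities over aligned bases were 62.4% to 67.6%.

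Ctrb1, Ctrl, Cela1, Cela2a and Cela3b shared 1 pattern over the libraries, at different amplitudes. Ctrb1 had 31562, 25530 and 16758 CPM in cKO replicates 1 to 3, against 15791, 17915, 17609.9 and 35479.6 CPM in WT replicates 1 to 4. Cela1 had 1271, 1067 and 870.5 CPM in cKO, against 763, 745, 699 and 1334 CPM in WT. Cela2a had 1829, 856 and 545 CPM in cKO, against 480.2, 298, 512 and 1681 CPM in WT. In each of the 3 genes cKO replicate 1 and WT replicate 4 were the highest libraries, and cKO replicate 3 was the lowest cKO library. Cela3b had 1712, 923 and 451 CPM in cKO, against 500.1, 389, 496 and 1873 CPM in WT. Ctrl had 11.9, 6.28 and 3.09 CPM in cKO, against 3.35, 1.55, 3.47 and 18.4 CPM in WT, from 26 to 260 counts per library. The groups overlapped in all 5 genes, and WT replicate 2, the library with Xist, was the lowest of the 7 for Ctrl, Cela2a and Cela3b. Whether embryo sex has a part in that was not tested.

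The amplitude separated the genes that moved together. Between its lowest and its highest library Cela1 differed 1.91-fold and Ctrb1 2.25-fold, against 4.82-fold for Cela3b, 6.14-fold for Cela2a and 11.9-fold for Ctrl. Ratios between genes of like amplitude were nearly constant: the SD over the 7 libraries of the log2 ratio was 0.166 for Ctrb1 to Cela1 and 0.208 for Cela2a to Cela3b. It was 0.318 for Ctrl to Cela2a and 0.352 for Ctrl to Cela3b, but 0.571 for Ctrb1 to Cela2a and 0.866 for Ctrl to Cela1. Cela2a to Cela3b kept a CPM ratio of 0.767 to 1.21 while each gene itself varied several-fold.

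**Figure D2:**
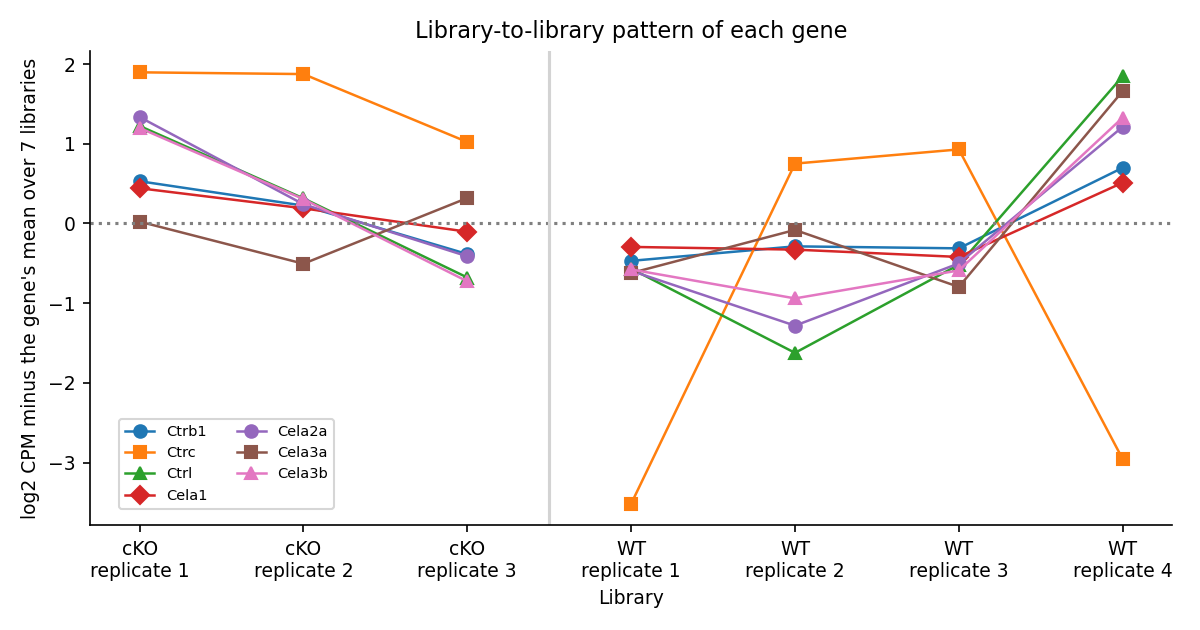
Log2 CPM of each gene minus its mean over the 7 libraries (vertical axis), by library, with cKO on the left and WT on the right. Lines only join the points of a gene within a group. Cela2a and Cela3b nearly coincide, Ctrb1 and Cela1 follow them at smaller amplitude, and Ctrc falls by itself in WT replicates 1 and 4.

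The spread between animals within a group was larger for these genes than for most features. The residual SD of log2 CPM, pooled over both groups, had a median of 0.202 over all tested features. It was 0.377 for Cela1 and 0.507 for Ctrb1, larger than in 77.5% and 86.4% of features. For Cela3a (0.909), Cela2a (0.994) and Cela3b (1.00) it was larger than in 96.2%, 96.9% and 97.0% of features. Ctrl (1.29) exceeded 98.2% of features and Ctrc (1.86) exceeded 99.5%.

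Ctrc followed a pattern of its own. It held 1990, 1956 and 1160 counts in cKO replicates 1 to 3, against 49, 891, 1038 and 56 counts in WT replicates 1 to 4. Scaled to library totals these were 118, 116 and 64.1 CPM in cKO, against 2.65, 53.1, 60.1 and 3.96 CPM in WT. WT replicates 1 and 4 therefore lay more than 10-fold under every other library, while WT replicates 2 and 3 came close to cKO replicate 3. WT replicate 4 was the highest WT library for each of the other 6 genes. The SD of the log2 ratio of Ctrc to each other gene was 2.30 to 2.75 over the 7 libraries.

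Several features of the locus bear on how Ctrc reads are counted. Ctrc lies beside Cela2a on chromosome 4, on the same strand, and shares 305 bases of exon with it, 21.4% of the annotated exon bases of Ctrc. All of these belong to 1 of its 5 annotated transcripts, annotated as subject to nonsense-mediated decay. Ctrc also shares 94 exon bases with Casp9 on the opposite strand. Cela2a shares 94 with Casp9 too, so those of Ctrc may be part of the 305. RefSeq on GRCm38.p6 lists Ctrc as a transcribed pseudogene, whereas GENCODE M21 lists it as protein coding. The antisense gene Ctrcos overlaps it without shared exon bases and held 4, 4 and 5 counts in cKO, against 10, 0, 0 and 17 counts in WT. Those of WT replicates 1 and 4 were the most, in the libraries with the fewest Ctrc counts, but the labels name no step that keeps the strand, so such reads cannot be assigned with certainty. Neighbouring genes did not follow Ctrc. Casp9, a caspase, had 39.3 to 54.9 CPM in cKO and 37.4 to 50.7 CPM in WT, and Efhd2, a calcium-binding protein gene, had 155 to 165 CPM in cKO and 143 to 164 CPM in WT.

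The genes most like Ctrc over the libraries lay in part on its own chromosome. Likeness was the root mean square (RMS) difference between centred log2 CPM profiles over the 7 libraries, among 13864 named genes of at least 1 CPM. Of the 5 nearest genes 3 were on chromosome 4, which holds 6.37% of these 13864 genes. The nearest was Zfp990, a zinc finger gene (RMS difference 0.482, against an RMS of 2.09 for Ctrc itself). It had 4.61, 3.85 and 4.64 CPM in cKO, against 0, 4.23, 4.63 and 0.141 CPM in WT. Padi1 and Padi2, which encode peptidylarginine deiminases, followed at RMS differences of 1.05 and 1.36. Padi2 had 57.3, 74.7 and 64.0 CPM in cKO, against 17.9, 70.9, 62.0 and 22.6 CPM in WT. All 3 genes were lowest in WT replicates 1 and 4, as Ctrc was. Zfp990 is separated from Ctrc by 25 features of the table, Padi2 by 35 and Padi1 by 37. The other near genes were the pseudogenes Tgif2-ps2 and Pcna-ps2, on chromosomes 17 and 19, which were low in cKO replicate 3 as well. Pcna-ps2 had 40.9, 39.2 and 3.54 CPM in cKO, against 2.38, 40.4, 39.4 and 4.24 CPM in WT.

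**Figure D3:**
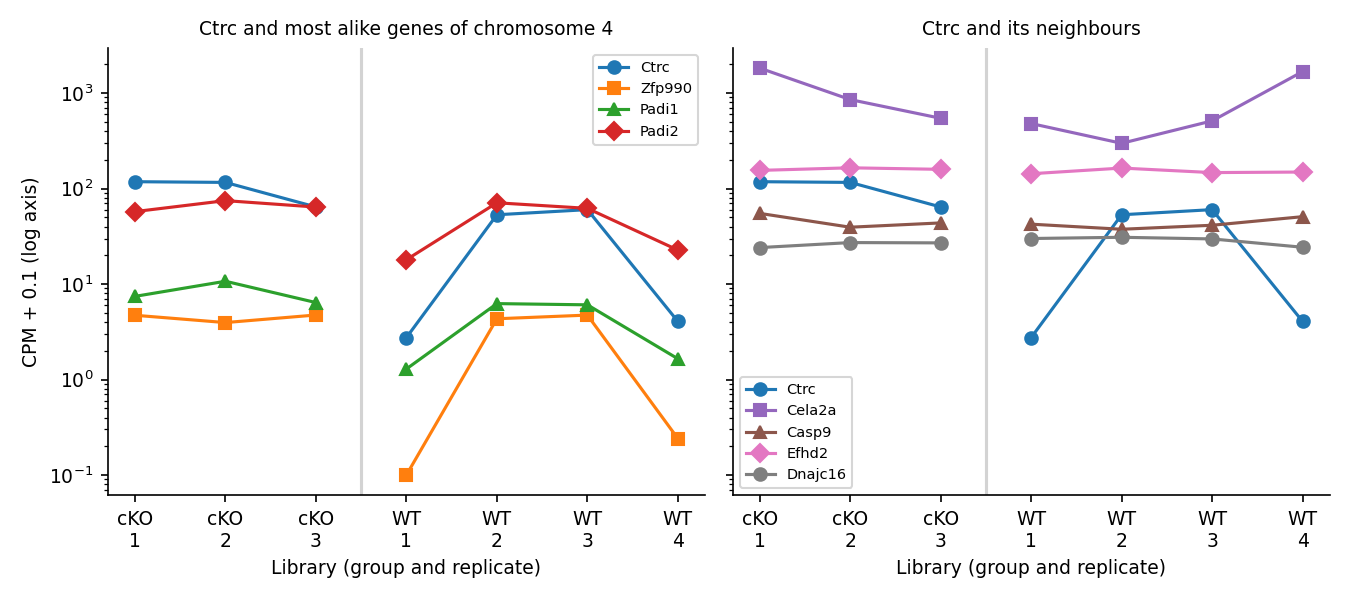
CPM + 0.1 (log axis) by library, cKO left and WT right of the grey line, for Ctrc with its most alike genes of chromosome 4 (left panel) and for Ctrc with neighbouring genes (right panel). Lines only join points of a gene. Ctrc, Zfp990, Padi1 and Padi2 are low in WT replicates 1 and 4, while Efhd2, Casp9, Dnajc16 and Cela2a are not.

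None of the 7 genes passed the test between cKO and WT. With p-values adjusted over all features by Benjamini-Hochberg, edgeR called 0 of 7, where it called 0.00591% of the 16910 tested features, 1 in all. DESeq2 and limma-voom also called 0 of 7, where they called 0.0771% and 0.00591% of tested features. At an unadjusted p under 0.05 edgeR listed 0 of 7, against 1.38% of features. The fitted log2 fold change was positive for 6 of 7 genes, against 46% of features, and its median was 0.27, against −0.01 over all features. The 7 genes share libraries and patterns, so the count of 6 rests on the same animals throughout.

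Ctrc had the largest fitted difference of the 7 with all libraries in the fit. Ctrc averaged 99.2 ± 30.4 CPM in cKO (SD, n = 3) and 30.0 ± 30.9 CPM in WT (SD, n = 4). The log2 fold change was 1.72, with an SE of 1.11 and a 95% interval of −1.02 to 4.47. This value rests on the low WT replicates 1 and 4: without both, a fit added after the values were seen gave 0.81, with an adjusted p of 0.999 from edgeR. The labels used here do not state the strain of the animals, and whether sequence differences between embryos on chromosome 4 have a part in the low Ctrc counts was not tested. The Ctrc groups did not overlap in CPM, as was so for 2.72% of tested features, and all cKO libraries were above all WT libraries in 1.30% of features, but the margin was between 64.1 CPM in cKO replicate 3 and 60.1 CPM in WT replicate 3. The exact 2-sided permutation test of mean log2 CPM gave p = 0.114, where 0.0286 is the smallest this design allows. Ctrb1 averaged 24617 ± 7444 CPM in cKO and 21699 ± 9235 CPM in WT, a log2 fold change of 0.18 (95% interval −0.61 to 0.98; exact permutation p = 0.629). Ctrl averaged 7.08 ± 4.45 CPM in cKO and 6.69 ± 7.84 CPM in WT, a difference of 0.09 on the log2 scale (95% interval −2.13 to 2.32; exact permutation p = 0.657).

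Among the elastases, the differences were likewise within the spread between animals. Cela1, the least variable gene, averaged 1069.6 ± 200.2 CPM in cKO and 885 ± 300.4 CPM in WT, a log2 fold change of 0.27 (95% interval −0.30 to 0.85; exact permutation p = 0.343). Cela2a gave a difference of 0.54 on the log2 scale (95% interval −1.27 to 2.34; exact permutation p = 0.371) and Cela3b 0.34 (−1.49 to 2.16; exact permutation p = 0.60). Cela3a gave −0.43 (95% interval −1.94 to 1.07; exact permutation p = 1). The intervals of all 7 genes include 0, and those of all but Ctrb1 and Cela1 reach past 1 on the log2 scale in both directions.

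**Figure D4:**
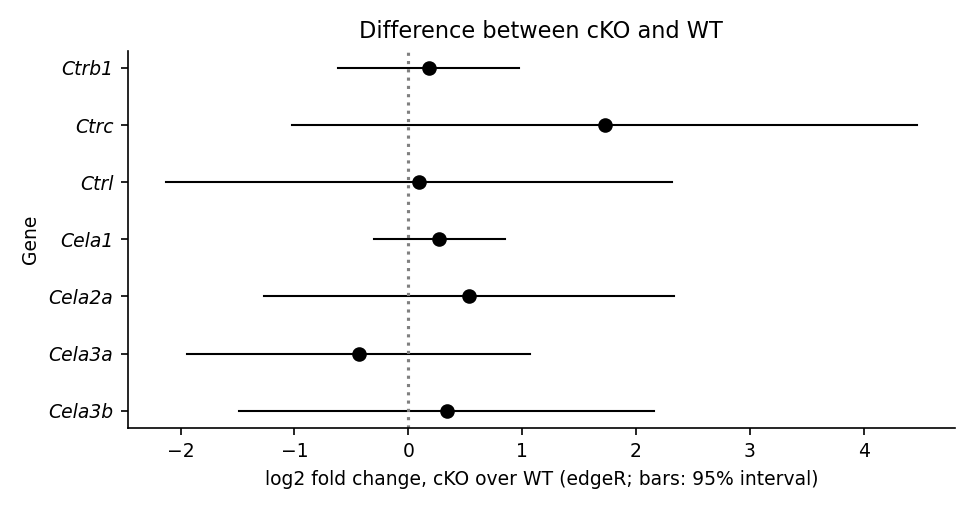
Fitted log2 fold change of cKO over WT (horizontal axis; edgeR) for each gene, with the 95% interval as a bar and a dotted line at 0. Every interval includes 0, and those of Cela1 and Ctrb1 are the shortest.

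Single libraries set the size and often the sign of these differences. Without WT replicate 4 the median log2 fold change of the 7 genes was 1.14 and Cela2a gave 1.31, while without cKO replicate 1 the median was −0.07, with 2 of 7 genes higher in cKO. Without both libraries the median was 0.57, with all 7 genes higher in cKO and 0 called.

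The summed level of other digestive enzyme genes was highest in the same 2 libraries, cKO replicate 1 and WT replicate 4. Of 28 genes for other enzymes and granule proteins, 23 were higher and 5 lower in the fit, 0 were called, and the median log2 fold change was 0.185. Their summed level was 44900, 36029.9 and 27910 CPM in cKO replicates 1 to 3, against 29756, 27948, 27547 and 54007 CPM in WT replicates 1 to 4. Pnliprp1 was the largest part, with 23475 CPM in cKO replicate 1 and 26305 CPM in WT replicate 4. Most of the 28 genes were singly highest in these libraries, but not all. Pnlip was lowest in WT replicate 4 (1.2 CPM) and Dnase1 in cKO replicate 1 (4.61 CPM). Amy2a5 (318 CPM) and Serpini2 (361 CPM) were highest in cKO replicate 2. Of the 28 genes, the 2 with the smallest p were Amy2b, a pancreatic amylase (log2 fold change −0.84), and Dnase1, a secreted nuclease (−0.24). Of the 11 genes for proteases and inhibitors that meet these enzymes, 4 of which the first list also holds, 10 were tested, with 9 higher, 1 lower and 0 called. The smallest p belonged to Serpina1b and Serpina1e, which encode alpha-1-antitrypsins (log2 fold changes 0.435 and 0.178). Spink1, the trypsin inhibitor of the acinar cell, averaged 169 ± 31.4 CPM in cKO and 150.3 ± 58.8 CPM in WT. Tmprss15, the enteropeptidase that activates trypsinogen in the gut, was at or under 0.355 CPM in every library.

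Acinar transcription factors varied less in sum than the enzymes. Of 10 acinar transcription factors 5 were higher and 5 lower in the fit, with a median log2 fold change of 0.00 and 0 called. Their summed level was 1934 to 2272 CPM in cKO and 1784 to 2460 CPM in WT. Ptf1a had 76.6, 64.4 and 51.8 CPM in cKO, against 47.8, 51.6, 54.4 and 69.5 CPM in WT, highest in the libraries that were also highest in the enzymes. Ptf1a (log2 fold change 0.204) and Mecom (−0.133) had the smallest p. Rbpjl had 587, 549 and 447 CPM in cKO, against 686, 322, 338 and 752 CPM in WT.

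The liver genes were highest in sum in the same 2 libraries as the shared pattern, cKO replicate 1 and WT replicate 4. In the other libraries Ttr, Ambp and Rbp4 made up most of the sum. They had 291, 424 and 104 of 921 CPM in cKO replicate 2, and 299.6, 418 and 101 of 939 CPM in WT replicate 2. Over all 7 libraries they differed only 1.5-, 1.47- and 1.47-fold, so the sum says little about the other liver genes there. The 14 liver genes were all tested, 14 were higher and 0 lower in the fit, 0 were called and none was at 0 in a library. The smallest p belonged to Rbp4 and Apoh (log2 fold changes 0.194 and 1.73). They summed to 2448, 921 and 806 CPM in cKO replicates 1 to 3, against 676, 939, 759 and 1757 CPM in WT replicates 1 to 4. Alb, serum albumin, had 689 CPM in cKO replicate 1 and 354 CPM in WT replicate 4, against 8.59 to 31.0 CPM in the other 5 libraries. Leukocyte genes, 6 of 6 tested, summed to 187 to 272 CPM in cKO and 175 to 305 CPM in WT, and erythroid genes, 6 of 6 tested, to 1321 to 2724 CPM in cKO and 954 to 2233 CPM in WT. The same 2 libraries were highest for the sums of all 3 lists. Of the leukocyte genes only Lyz2 and C1qa were singly highest in both, whereas Ptprc (10.8 CPM) and Cd68 (8.23 CPM) were highest in cKO replicate 2. The part of liver, leukocyte and erythroid cells in the protease levels was not tested. In whole pancreas, fewer acinar cells and less RNA per acinar cell cannot be told apart.

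Other cell types that a dissection can hold overlapped between the groups in summed level. Mesenchyme genes summed to 10081 to 11061 CPM in cKO and 10023 to 12343 CPM in WT, endothelial genes to 398 to 472 CPM in cKO and 428 to 494 CPM in WT, and duct genes to 831 to 903 CPM in cKO and 711 to 942 CPM in WT. Endocrine genes summed to 2062, 1781 and 1689 CPM in cKO replicates 1 to 3, against 1571, 1574, 1443 and 1958 CPM in WT replicates 1 to 4. This sum was thus also highest in cKO replicate 1 and WT replicate 4. Of the endocrine genes only Ins1 and Ins2 were singly highest in both. Pax6 was lowest in these libraries, with 22.6 CPM in cKO replicate 1 and 28 CPM in WT replicate 4. Gcg was highest in cKO replicate 3 (622 CPM), and Neurog3 was lowest in cKO replicate 1 (48.5 CPM). Stomach genes (3 of 8 tested) summed to at most 22.5 CPM, intestinal genes (2 of 7 tested) to at most 33.8 CPM and spleen genes (4 of 5 tested) to at most 33.7 CPM in any library. Neuron and Schwann cell genes summed to 49.2 to 209.6 CPM in cKO and 35.1 to 206 CPM in WT. The stomach genes Gkn1 and Muc5ac were at 0 in 6 and 5 of the 7 libraries. None of the genes in these lists was called.

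**Figure D5:**
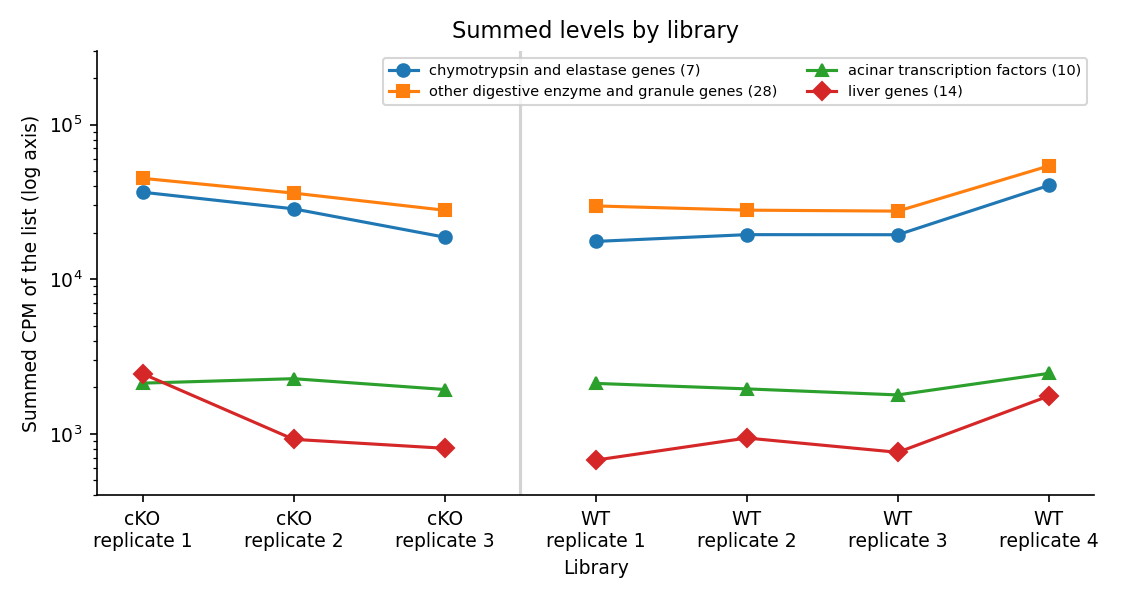
Summed CPM (log axis) of the 7 chymotrypsin and elastase genes, 28 other digestive enzyme and granule genes, 10 acinar transcription factors and 14 liver genes, by library, cKO left and WT right of the grey line. Lines only join points of a list. The enzyme lists and the liver list are highest in cKO replicate 1 and WT replicate 4, and the transcription factors vary less.

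Genes for other acinar products led the likeness to Cela2a and Cela3b. Nearest to Cela3b were Rnase1, pancreatic ribonuclease (RMS difference 0.0446, against an RMS of 0.877 for Cela3b), the pseudogene Amy2-ps1, Cpb1, a carboxypeptidase, Sycn, a granule protein, and C3, a complement component. Rnase1 had 403, 223 and 103 CPM in cKO, against 119, 98.9, 119 and 451 CPM in WT, in the order of libraries seen for Cela3b. Nearest to Cela2a were Cpb1, Sycn, Amy2-ps1, Rnase1 and Try5, a trypsinogen (0.177 to 0.271). Nearest to Ctrl were Cpb1, Zg16, Ltf, Rnase1 and Stfa3 (0.292 to 0.374).

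Cela1, Ctrb1 and Cela3a had other neighbours. Nearest to Cela1 were the insulin genes Ins2 and Ins1, products of beta cells (RMS differences 0.0285 and 0.0358, against an RMS of 0.354 for Cela1), before Creld2, Lipc and the lipase-related Pnliprp1. Ins2 had 766, 665 and 533 CPM in cKO, against 461, 462, 429.8 and 779.9 CPM in WT. Nearest to Ctrb1 were Lyz2, a lysozyme of macrophages, Hs3st3b1, Clps, the cofactor of pancreatic lipase, Pglyrp1 and Upk3a (0.0812 to 0.0989). Among the genes nearest to Cela3a were Nxph2, Epb41l4b, Oasl2 and Abcc6 (0.405 to 0.447), which are not digestive enzymes. Cela3a itself held only 13 to 66 counts per library, which limits its profile. Nearest to the mean profile of the 7 genes were Gdf15, Gabrp, Cd52, Selplg, Actrt3, Reg1, Agt, Aqp8, Pglyrp1 and Gnat2 (0.185 to 0.260).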

How the data were processed

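Poly(A) RNA of whole E15.5 pancreas was made into libraries with a NEBNext Ultra kit, per the labels' protocols. The authors deposited raw read counts per feature, which are whole and not normalized. Per the submitters' processing notes, HISAT2, StringTie, featureCounts and mm39 were used, with roles and settings not given. Each column carried a group and replicate number of 1 sample, and 0 such columns were unused. Features without an Ensembl identifier took 0.206% of the counts.

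Symbols were found for 26764 of 26823 Ensembl identifiers. Lengths, overlaps and gene order came from GENCODE M21 (GRCm38). Counts were filtered with filterByExpr, scaled with TMM factors and tested with edgeR 4.0.16 (robust glmQLFit, glmQLFTest; R 4.3.3) on group alone. A call is an adjusted p under 0.05. The test was checked on simulated counts. Log2 CPM used a prior count of 2. Alternatives used DESeq2 1.42.0, limma 3.58.1 (voom), other scalings and filters, a replicate block and fits without libraries. Single genes were also tested over the 35 divisions of the libraries. No pair of libraries in a group was alike within sampling noise. The genes and lists were chosen with earlier results of these data known. Named were the 7 genes, the smallest p of a list and the nearest profiles (5 per gene, 10 for their mean), of which 1 is not reported here. Casp9, Efhd2, Dnajc16 and Ctrcos were added after values were seen, and the other named list genes were chosen for their role.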

Additional observations from a re-analysis of the deposited data

Results flagged for a closer look

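WT replicate 4 stood apart from the other 3 WT libraries in 6 of the 7 genes, by the gap to its nearest neighbour set against the range of the group of 4. It had 35479.6 CPM of Ctrb1, against 15791 to 17915 in the others, 1334 CPM of Cela1 (699 to 763), 1681 CPM of Cela2a (298 to 512) and 1873 CPM of Cela3b (389 to 500.1). It had 18.4 CPM of Ctrl (1.55 to 3.47) and 4.66 CPM of Cela3a (0.753 to 1.31). For normally distributed values, chance would set such a library apart in about 1 of 20 groups for a single gene. The rule was applied to CPM and not to log2 CPM, and whether that rate holds for CPM was not tested. These genes share their libraries, so the 6 are not independent. The cKO group of 3 was not tested. The difference of Ctrc between WT libraries is not of this kind, because 2 libraries lay low together.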

How the results depend on the processing

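None of the 7 genes was called under any alternative run. Over all features the count of calls was 1 in the fit reported, 0 with DESeq2 size factors, library totals, a filter at 1 CPM in 3 libraries or estimation that is not robust, 4 with no filter, 13 with DESeq2 and 0 to 3 in the fits without 1 library. With the replicate number as a block, which also leaves out WT replicate 4, it was 13, with 0 of the 7 genes among them, against 0 calls without WT replicate 4 and no block. Cela3a gave 0.487 with the block, 0.493 without WT replicate 4 alone, 0.48 without WT replicate 4 and cKO replicate 1 and 0.42 without WT replicates 1 and 4. Without 1 library at a time the log2 fold change ran from −0.0297 to 0.52 for Ctrb1, −0.49 to 1.33 for Ctrl, −0.0738 to 1.31 for Cela2a, −0.70 to 0.49 for Cela3a and −0.24 to 1.14 for Cela3b, each with both signs, and their median from −0.07 to 1.14. Cela1 gave 0.14 to 0.53. Ctrc gave 1.34 to 2.31, but each of these fits keeps at least 1 of the 2 low WT libraries. Without both, an alternative chosen after seeing the data, it gave 0.81. limma-voom gave Ctrc 2.79 and the median 0.45. The median of the 7 genes was 0.97 with the block, against 1.14 without WT replicate 4 and no block. Deviations of same-numbered cKO and WT libraries correlated at 0.381, 0.417 and −0.037, against −0.476 to 0.25 for libraries of unlike number. So few libraries cannot decide whether same-numbered samples share more than a number. In the order of levels, 3 genes changed rank with coding length and 2 with the longest transcript. The cause of these shifts was not tested. Ctrl and Cela3a had at most 260 and 66 counts in a library, which limits their precision.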

Other observations

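Serpini2, a serine protease inhibitor of the pancreas, was chosen after its values were seen. It had 338, 361 and 179 CPM in cKO replicates 1 to 3, against 293, 242, 70.5 and 319 CPM in WT replicates 1 to 4, and was lowest in WT replicate 3. Amy2b, an amylase, had 759.7, 395 and 313 CPM in cKO, against 789, 745, 705 and 1274 CPM in WT, with cKO replicates 2 and 3 under every WT library, and it was not called.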
